A study of Macaca mulatta with 161 samples.

Results

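The genes described here carry the signal of the cytokines LIF and IL6 to the transcription factor STAT3: the ligand LIF, the receptors IL6R, LIFR and IL6ST, the kinases JAK1 and JAK2, STAT3 itself, and the inhibitor SOCS3. They were taken by name, and all 8 have a row among the 16049 gene symbols of the deposited table. The table holds FPKM, read counts scaled by transcript length and by the size of the library, of 161 single cells, 1 library per cell, from the inner cell mass of rhesus monkey (Macaca mulatta) blastocysts. Embryos came from oocytes of hormone-stimulated females, fertilised and cultured in HECM-9 medium with serum. Outer cells were marked with the membrane dye PKH26, and cells without dye were taken as inner cells. The early blastocyst, collected at about embryonic day 5, has 44 cells, the middle blastocyst at about day 5.5 has 39, the late blastocyst at about day 6 has 52, and the hatching blastocyst at about day 7 has 26. No genetic change or drug separates these stages. Since the labels tie no cell to an embryo or animal, a stage counts as 1 sample and its cells are not replicates. Differences are therefore descriptions, with no replicate check and no p-value.

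As background, LIF binds LIFR and IL6 binds IL6R, and each receptor then pairs with the shared chain gp130, which is the product of IL6ST. Kinases of the JAK family bound to the receptor tails phosphorylate STAT3, which moves to the nucleus, and SOCS3, a gene that STAT3 switches on in many cell types, blocks the receptor complex in return. In the mouse, LIF and STAT3 hold embryonic stem cells in the naive state. RNA levels do not show whether STAT3 is phosphorylated.

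Reads recovered from the steps of the FPKM values had a median of 10.9 M reads per cell (M, mega), with a range of 2.94 to 18.4 M. Stage medians were 10.4, 11.8, 10.4 and 10.9 M from early to hatching. An FPKM of 1 stood for a median of 107 reads of LIFR, 123 of IL6ST, 69.4 of IL6R, 47.5 of LIF and 33.3 of SOCS3. No pair of cells had identical values. The 13 late cells with title numbers above 46, a limit chosen after the data were seen, stood apart in IL6ST and IL6R, and results that rest on late cells are given without them where they differ. They include cell HSL79, whose number may belong to another series, since most late titles have the prefix L. A few middle and late cells have the prefixes HSM and HSL, whose meaning is not given. The low and high ranges of title numbers used below leave these out, which keeps 37 middle and 47 late cells. Levels below are means of log2(FPKM + 1), a scale that understates differences of low genes, with the SD between cells. A cell is counted as having a gene at FPKM of at least 1. Ranges in parentheses after a share of cells are exact Clopper-Pearson 95% intervals. They hold the error of counting cells and nothing else, and cells of 1 embryo would make them too narrow.

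The ligand was nearly absent. LIF reached FPKM of 1 in 4 of 44 early cells (9.09%, 2.53% to 21.7%), 2 of 39 middle, 0 of 52 late (0% to 6.85%) and 1 of 26 hatching cells. Its highest value was 19.9 FPKM, in an early cell, and 145 of the 161 cells had 0 reads. LIF had a mean FPKM of 0.228 over all cells and was the only 1 of the 8 genes below the level filter of a mean FPKM of 1. IL6, the ligand of IL6R, was found in 1 early, 5 middle, 3 late and 1 hatching cell.

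**Figure D1:**
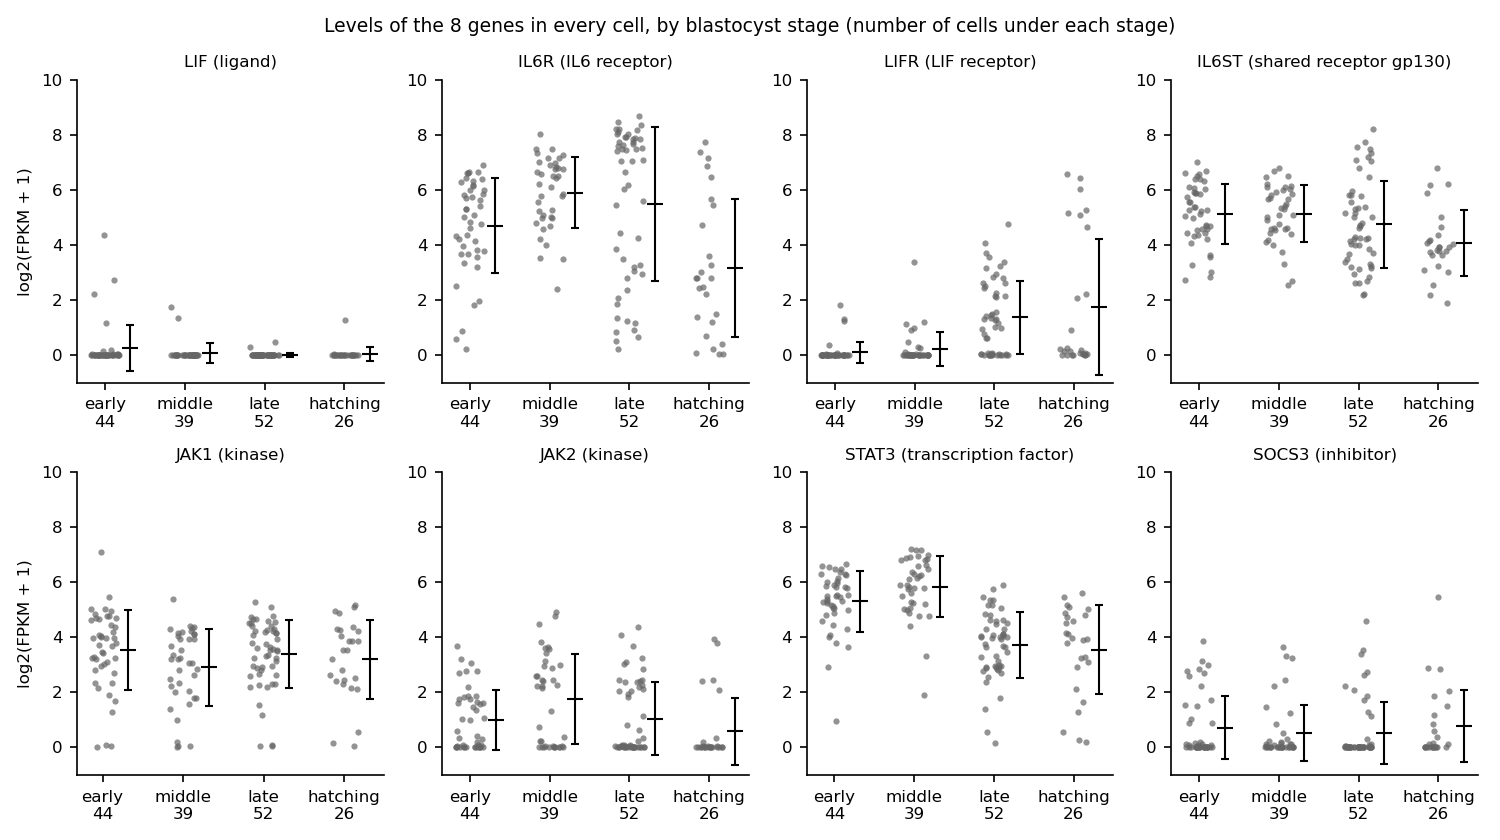
Levels of the 8 genes as log2(FPKM + 1) on the vertical axis, by blastocyst stage on the horizontal axis. Each grey point is 1 cell, and black marks give the mean and SD between cells (44, 39, 52 and 26 cells). IL6R spreads from 0.21 to 8.68 in late cells, LIFR lies near the base line in all but a few early and middle cells, and STAT3 sits lower in the late and hatching stages than in the early and middle ones.

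IL6R, which binds IL6 itself, was among the most abundant of the 8 genes and had the largest SD of them in early, late and hatching cells. Its lowest, median and highest FPKM were 0.181, 32.2 and 121 in early cells, 4.33, 73.6 and 261 in middle cells, 0.161, 132 and 410 in late cells, and 0.0313, 5.98 and 211 in hatching cells. The 4 ranges overlap, and late cells include values near the lowest and the highest over all stages. At least 100 FPKM was reached by 2 of 44 early, 14 of 39 middle, 28 of 52 late and 4 of 26 hatching cells. Mean levels were 4.70 (SD 1.73), 5.91 (SD 1.30), 5.49 (SD 2.79) and 3.18 (SD 2.50). The middle mean was 1.21 above the early mean, less than the SD between early cells, and came to 0.86 at a pseudocount of 10 and to 0.97 from mean FPKM.

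LIFR, the receptor chain that binds LIF, was rare before the late blastocyst. It reached FPKM of 1 in 3 of 44 early cells (6.82%, 1.43% to 18.7%), 4 of 39 middle (10.3%, 2.87% to 24.2%), 28 of 52 late (53.8%, 39.5% to 67.8%) and 9 of 26 cells at hatching (34.6%, 17.2% to 55.7%). The highest cell held 2.53 FPKM in the early, 9.47 in the middle, 26.3 in the late and 93.9 in the hatching stage. Cells above 10 FPKM were found in the late stage (4 cells) and the hatching stage (7 cells), and in neither earlier stage. Means were 0.11 (SD 0.38), 0.23 (SD 0.62), 1.37 (SD 1.34) and 1.76 (SD 2.48). The late mean was 1.14 above the middle mean. That difference depended on the pseudocount, at 2.51 for 0.1 and 0.28 for 10, and the median middle cell held 0.00684 FPKM.

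IL6ST, which encodes gp130, was found in all 161 cells. Its lowest, median and highest FPKM were 5.603, 37.2 and 128 in early cells, 4.92, 38.4 and 110 in middle cells, 3.51, 21.2 and 297 in late cells, and 2.73, 14.2 and 112 in hatching cells. The ranges overlap throughout, and the means of 5.13 (SD 1.10), 5.15 (SD 1.04), 4.75 (SD 1.59) and 4.07 (SD 1.19) differ between neighbouring stages by less than the SD between cells. IL6ST of at least 100 FPKM was found in 9 of the 13 late cells with title numbers above 46 and in 0 of the other 39. Without these 13 cells, IL6ST in late minus middle cells was at -1.05, against -0.39 with them. IL6ST was thus found in every cell, whereas LIFR was not.

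Of the kinases, JAK1 was found in most cells of every stage and JAK2 in a minority of late and hatching cells. JAK1 reached FPKM of 1 in 41 of 44, 35 of 39, 49 of 52 and 23 of 26 cells from early to hatching. Its means were 3.53 (SD 1.46), 2.91 (SD 1.39), 3.38 (SD 1.24) and 3.21 (SD 1.44), which lie within 1 SD of each other. JAK1 moved with the numbers in the cells' titles, whose meaning the labels do not give. Early cells numbered 29 to 48 had a mean of 2.53 and those numbered 1 to 28 a mean of 4.30, late cells numbered 25 to 61 had 3.83 and those numbered 3 to 22 had 2.48, and hatching cells numbered 22 to 47 had 2.47 and those numbered 1 to 18 had 4.07. In early cells JAK1 also ran against the recovered reads, with a Spearman rho of -0.61 over 44 cells. The part of these numbers in the JAK1 levels was not tested. JAK2 reached FPKM of 1 in 21 of 44 early (47.7%), 22 of 39 middle (56.4%), 20 of 52 late (38.5%) and 5 of 26 cells at hatching (19.2%, 6.55% to 39.4%). Its means were 1.00 (SD 1.09), 1.76 (SD 1.63), 1.05 (SD 1.34) and 0.60 (SD 1.22), each step being within the SD. Neither kinase reached FPKM of 1 in 3 early, 3 middle, 2 late and 2 hatching cells.

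STAT3 was lower in the late than in the middle blastocyst. Its lowest, median and highest FPKM were 0.951, 43.7 and 99.6 in early cells, 2.78, 59.1 and 147 in middle cells, 0.129, 14.7 and 59.04 in late cells, and 0.135, 14.4 and 48.1 in hatching cells. The ranges overlap, but the upper quartile of late cells, 22.4 FPKM, lay below the lower quartile of middle cells, 36.7 FPKM. Means were 5.31 (SD 1.10), 5.85 (SD 1.10), 3.72 (SD 1.21) and 3.56 (SD 1.62), so late minus middle cells differed by -2.12, more than the SD of either stage. Over the 10 alternatives tried this difference lay between -2.78 and -1.53. STAT3 was still found in 50 of 52 late and 23 of 26 hatching cells.

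SOCS3, the feedback inhibitor, was found in a minority of cells of each stage, 12 of 44 early (27.3%, 14.96% to 42.8%), 7 of 39 middle (17.9%, 7.54% to 33.5%), 11 of 52 late (21.2%, 11.1% to 34.7%) and 7 of 26 cells at hatching (26.9%, 11.6% to 47.8%). Means were 0.72 (SD 1.14), 0.52 (SD 1.03), 0.54 (SD 1.12) and 0.78 (SD 1.32), and the intervals overlap. It had 0 reads in 87 cells. STAT3 and SOCS3 were at FPKM of at least 1 in the same cell in 12 early, 7 middle, 10 late and 4 hatching cells.

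A difference of at least 1 log2 unit is counted below as higher or lower, among the 7 genes with a mean FPKM of at least 1 and against the 9781 genes of the table that met the same level. In middle minus early cells, 1 of the 7 was higher (IL6R) and 0 were lower, where 3.06% of all genes were higher and 3.61% lower. Rescaling every cell to the same sum turned the all-gene split of 299 higher and 353 lower into 587 and 212, and moved the all-gene median to 0.20, against 0.08 as deposited. In late minus middle cells, 1 was higher (LIFR, 1.14) and 1 lower (STAT3, -2.12), where 3.95% and 5.82% of all genes were. Without the late cells numbered above 46, 1 was higher and 3 lower, with IL6R at -1.08 and IL6ST at -1.05 added. Over all genes 487 were then higher and 726 lower, against 386 and 569 with these cells. In hatching minus late cells, 0 were higher and 1 lower (IL6R, -2.31), where 7.26% and 9.87% were. Hatching minus early cells gave 1 higher (LIFR, 1.65) and 3 lower (STAT3 at -1.75, IL6R at -1.52 and IL6ST at -1.06), where 11.3% and 16.2% were.

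Comparisons with the whole hatching stage depended on which of its cells were used. For hatching minus early cells, IL6R was at -0.13 in low and -2.78 in high title numbers, LIFR at 3.28 and 0.26, STAT3 at -2.90 and -0.69, and IL6ST at -0.50 and -1.56. For the same pair of stages, IL6R was at -0.72 and LIFR at 0.71 with a pseudocount of 10, and mean FPKM gave -0.24 and 3.80. IL6R in hatching minus late cells was at -0.60 in low and -3.71 in high title numbers. The hatching cells numbered 1 to 18 hold every SOX17-high cell of that stage, as described below. IL6ST was above -1 under 5 alternatives, among them -0.86 with median-of-ratios scaling. That scaling moved the all-gene median of hatching minus early cells to 0.00, against -0.12 as deposited, and that of hatching minus late cells to -0.03, against -0.14.

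On the FPKM scale, which is per length, the 8 genes kept a similar order. In early cells the means ran STAT3, IL6ST, IL6R, JAK1, JAK2, SOCS3, LIF and LIFR, and in middle cells IL6R, STAT3, IL6ST, JAK1, JAK2, SOCS3, LIFR and LIF. In late cells LIFR (1.37) stood above JAK2 (1.05), and in hatching cells IL6ST (4.07) led before STAT3 (3.56), JAK1 (3.21) and IL6R (3.18). STAT3, IL6ST and IL6R in early and middle cells, and the first 4 genes in hatching cells, lay within 1 SD of each other, as did the 4 lowest genes of each stage next to their neighbours.

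NANOG marks the epiblast, the source of the embryo proper, and SOX17 the primitive endoderm, the source of the yolk sac lining. A cell is called SOX17-leading here when its log2(FPKM + 1) of SOX17 exceeds that of NANOG, and otherwise NANOG-leading. All 44 early and 39 middle cells were NANOG-leading. SOX17-leading cells numbered 19 of 52 in the late stage (36.5%, 23.6% to 51.04%) and 7 of 26 in the hatching stage (26.9%, 11.6% to 47.8%). These are ranges of levels, not cell types, and 3 late and 0 hatching cells lay within 1 log2 unit of the cut. The median late SOX17-leading cell held 83.8 FPKM of SOX17 and 2.01 of NANOG, and the median late NANOG-leading cell 0.323 and 525. In hatching cells NANOG ran from 1.73 to 8.05 FPKM in SOX17-leading and from 306 to 822 FPKM in NANOG-leading cells. Marker lists went with the cut, which itself used SOX17 and NANOG. Late SOX17-leading cells had 11 of 11 primitive endoderm markers, SOX17 included, at a median FPKM of at least 1, and late NANOG-leading cells 2. Of 10 epiblast markers, NANOG included, the SOX17-leading cells had 3 and the NANOG-leading cells 9 in the late stage, and 4 and 10 in the hatching stage. Clusters built without the 8 genes, the pathway genes or any marker separated the hatching cells exactly as the cut does, and put 10 late NANOG-leading cells with the 19 SOX17-leading ones.

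In late cells, IL6R and LIFR were higher in SOX17-leading than in NANOG-leading cells. IL6R had a lowest, median and highest value of 133, 214 and 410 FPKM in the 19 SOX17-leading cells, against 0.161, 10.4 and 357 FPKM in the 33 NANOG-leading cells. All 19 SOX17-leading cells were above 100 FPKM, as were 9 of the 33 NANOG-leading cells, so the groups overlap at the top. Means were 7.75 (SD 0.39) and 4.18 (SD 2.75), a difference of 3.57 that was 1.55 when taken from mean FPKM. LIFR had 0.0101, 4.79 and 26.3 FPKM in SOX17-leading cells, against 0, 0.0578 and 6.82 FPKM in NANOG-leading cells. It was found in 16 of 19 (84.2%, 60.4% to 96.6%) and 12 of 33 (36.4%, 20.4% to 54.9%), and 7 SOX17-leading cells lay above every NANOG-leading cell. The difference of means was 1.68, at 2.99 and 0.51 for pseudocounts of 0.1 and 10.

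The other genes differed by less in late cells. SOCS3 was found in 8 of 19 SOX17-leading cells (42.1%, 20.3% to 66.5%) and 3 of 33 NANOG-leading cells (9.09%, 1.92% to 24.3%), with a difference of 0.92, which was 1.97 at a pseudocount of 0.1. IL6ST differed by 0.80, with 1.98 between the clusters, 1.66 when cells were split at a SOX17 FPKM of 1 and 1.26 without the cells numbered above 46. JAK2 differed by 0.58, with 1.36 between the clusters, 1.24 when split at that SOX17 level, 1.33 at a pseudocount of 0.1 and 1.88 for the median cell. JAK1 differed by 0.33, with 1.00 between the clusters. STAT3 had means of 3.50 (SD 1.37) and 3.85 (SD 1.11), a difference of -0.35, which was 0.30 in low and -1.24 in high title numbers, 0.22 by clusters and 0.07 when cells were split at a SOX17 FPKM of 1. Of the 7 genes, 2 were higher and 0 lower, where 7.69% and 7.89% of all genes were. LIFR, counted as higher, had a mean of 6.65 FPKM in SOX17-leading and 1.13 in NANOG-leading cells. The former thus raised the all-cell mean that the level filter uses. By clusters, and when split at a SOX17 FPKM of 1, 4 of the 7 were higher and 0 lower, with IL6ST and JAK2 added. Over all genes 839 were then higher and 883 lower by clusters, and 798 and 764 by the SOX17 split, against 752 and 772 as reported. The SOX17 split moves 9 NANOG-leading cells to the higher side. Of these, 6 are numbered above 46, the cells that stood apart in IL6ST. None of the 7 separated the late groups without overlap, and 0.0102% of all genes did. Within title numbers, IL6R differed by 3.99 (low) and 3.24 (high) and LIFR by 1.12 and 2.07.

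**Figure D2:**
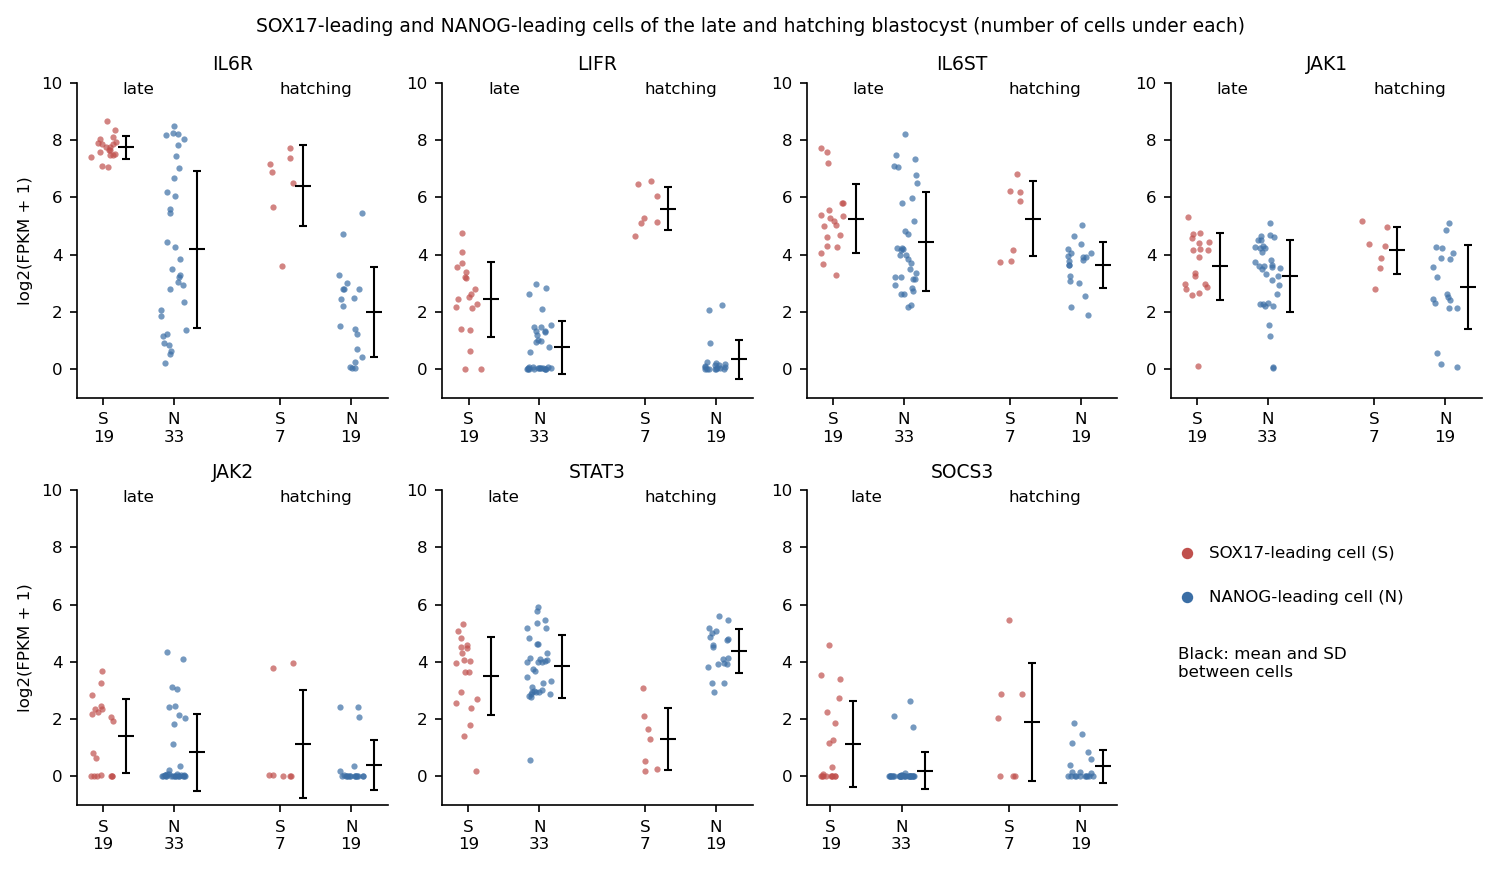
Levels of 7 genes as log2(FPKM + 1) on the vertical axis in SOX17-leading cells (red, S) and NANOG-leading cells (blue, N) of the late and hatching blastocyst, with cell numbers on the horizontal axis. Points are cells, and black marks give the mean and SD between cells. LIFR separates the 7 SOX17-leading from the 19 NANOG-leading hatching cells without overlap, and STAT3 is low in the same 7 cells.

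The 33 late NANOG-leading cells were not alike. In 9 of them SOX17 was also at FPKM of at least 1, a split chosen after the data were seen. IL6R in these 9 cells had a lowest, median and highest FPKM of 1.24, 263 and 357, against 0.161, 7.79 and 131 in the 24 NANOG-leading cells with SOX17 below 1. In 7 of the 9 cells IL6R was above 100 FPKM, at log2 levels of 7.46 to 8.48, and in the other two it was at 1.16 and 2.80. Title numbers went with this split, since 6 of the 9 cells and 4 of the 24 were numbered above 46, and 6 of the 7 cells high in IL6R were among them. The 6 cells held 228, 295 and 357 FPKM of IL6R, and the 3 cells of lower numbers 1.24, 5.99 and 176 FPKM. Among the 24 cells, the 4 numbered above 46 held 42.6, 56.4 and 101 FPKM and the other 20 held 0.161, 5.39 and 131 FPKM.

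IL6ST followed the title numbers at every SOX17 level. In cells numbered above 46 its median was 189 FPKM in 3 SOX17-leading cells, 148 in 6 NANOG-leading cells with SOX17 and 44.7 in 4 NANOG-leading cells without. In cells of lower numbers it was 31.5, 8.33 and 9.80 FPKM, in 16, 3 and 20 cells. JAK2 was found in 6 of the 9 cells and 4 of the 24, with means of 2.06 (SD 1.74) and 0.38 (SD 0.79). Without the cells numbered above 46 these counts were 2 of 3 and 2 of 20. LIFR was found in 5 of the 9 cells and 7 of the 24, with medians of 1.49 and 0.0401 FPKM. Its means were 1.08 (SD 0.93) in the 9 cells and 0.64 (SD 0.89) in the 24, a smaller difference than the SD, against 2.44 (SD 1.31) in SOX17-leading cells.

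The 9 cells had a median of 10.7 M recovered reads and the 24 cells 9.71 M. Their summed log2 level of 11 primitive endoderm markers had a median of 33.6, against 9.56 in the 24 cells and 54.2 in SOX17-leading cells. For 10 epiblast markers it was 39.6, against 64.4 and 21.2. For 11 trophectoderm markers it was 47.8, against 42.2 and 44.9, and 1 of the 9 cells reached 93.4. For 5 macrophage markers it was 3.94, against 0.236 and 0.809. The part of these markers, and of what the title numbers stand for, in the IL6R and IL6ST levels was not tested.

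The widest separation was found in hatching cells. LIFR had a lowest, median and highest value of 24.4, 37.8 and 93.9 FPKM in the 7 SOX17-leading cells, against 0, 0.0607 and 3.69 FPKM in the 19 NANOG-leading cells. The groups do not overlap, as for 3.41% of all genes. Means were 5.61 (SD 0.74) and 0.34 (SD 0.67), a difference of 5.27 that ranged from 2.50 at a pseudocount of 10 to 7.71 at 0.1. IL6R had 11.3, 117 and 211 FPKM in SOX17-leading cells, against 0.0313, 3.66 and 42.5 FPKM in NANOG-leading cells. Only 1 SOX17-leading cell fell inside the NANOG-leading range, and the difference of means was 4.43.

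STAT3 ran the other way. It had 0.135, 1.47 and 7.51 FPKM in hatching SOX17-leading cells, against 6.66, 21.99 and 48.1 FPKM in hatching NANOG-leading cells. In 6 of the 7 SOX17-leading cells it was below every NANOG-leading cell, and 3 of the 7 were below 1 FPKM. Means were 1.31 (SD 1.07) and 4.38 (SD 0.76), a difference of -3.07, with -1.36 at a pseudocount of 10. At hatching, the group of cells with the higher mean of LIFR RNA thus had the lower mean of STAT3 RNA. Cell by cell the order was not strict, since H11, highest in LIFR at 6.57, had STAT3 at 1.30, above H18 at 0.18.

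Other members were also higher in hatching SOX17-leading cells. IL6ST had 12.5, 58.3 and 112 FPKM, against 2.73, 13.2 and 31.7 FPKM in NANOG-leading cells, a difference of 1.63 with 4 of 7 cells above the NANOG-leading range. SOCS3 was at log2 levels of 2.04 to 5.48 in 4 of the 7 SOX17-leading cells and at 0 in the other three, against 3 of 19 NANOG-leading cells at FPKM of at least 1. Its difference was 1.53, with 0.55 at a pseudocount of 10. Of the 4 SOX17-leading cells with SOCS3, 1 also had STAT3 at FPKM of at least 1. JAK1 differed by 1.28, and by 0.60 at a pseudocount of 10, and JAK2 by 0.73. Of the 7 genes, 5 were higher and 1 lower, where 14.2% of all genes were higher and 33.7% lower. LIFR had a mean of 53.7 FPKM in the SOX17-leading and 0.460 in the NANOG-leading cells, and SOCS3 8.49 and 0.409. The SOX17-leading cells thus raised the all-cell means that the level filter uses, 3.53 FPKM for LIFR and 1.51 for SOCS3. Counts of higher genes that include these 2 genes may rest partly on that.

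These 7 cells differ from the others in more than SOX17. All of them have title numbers 1 to 18, as do 5 of the 19 NANOG-leading cells, so title number and range can be told apart only within these 12 cells. Against the 5 cells alone, LIFR differed by 5.31, IL6R by 4.77, IL6ST by 1.62, SOCS3 by 1.81 and STAT3 by -3.11, but JAK1 by 0.18 only. The SOX17-leading cells had a median of 9.09 M recovered reads and 5680 genes at FPKM of at least 1, the NANOG-leading cells 12.3 M and 6940, and the 5 NANOG-leading cells 8.26 M and 6539. The median difference over all genes was -0.45, and -0.15 with median-of-ratios scaling, which turned the all-gene split of 1392 higher and 3295 lower into 2010 and 2488. With that scaling LIFR was at 5.71, IL6R at 4.96, IL6ST at 2.20, JAK1 at 1.82, SOCS3 at 1.80 and STAT3 at -2.68. The summed log2 level of 11 trophectoderm markers had a median of 51.5 in SOX17-leading and 36.2 in NANOG-leading cells, with ranges of 43.4 to 71.0 and 29.4 to 49.4. The part of these markers and of depth in the differences was not tested. Of 8 cumulus cell markers, 7 were at 0 in every hatching cell of both groups. The remaining marker was not. Through it, the summed log2 level of the 8 markers reached 5.796 in the highest SOX17-leading cell and 0.039 in the highest NANOG-leading cell. The median was 0 in both groups. The part of this marker in the differences was not tested.

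**Figure D3:**
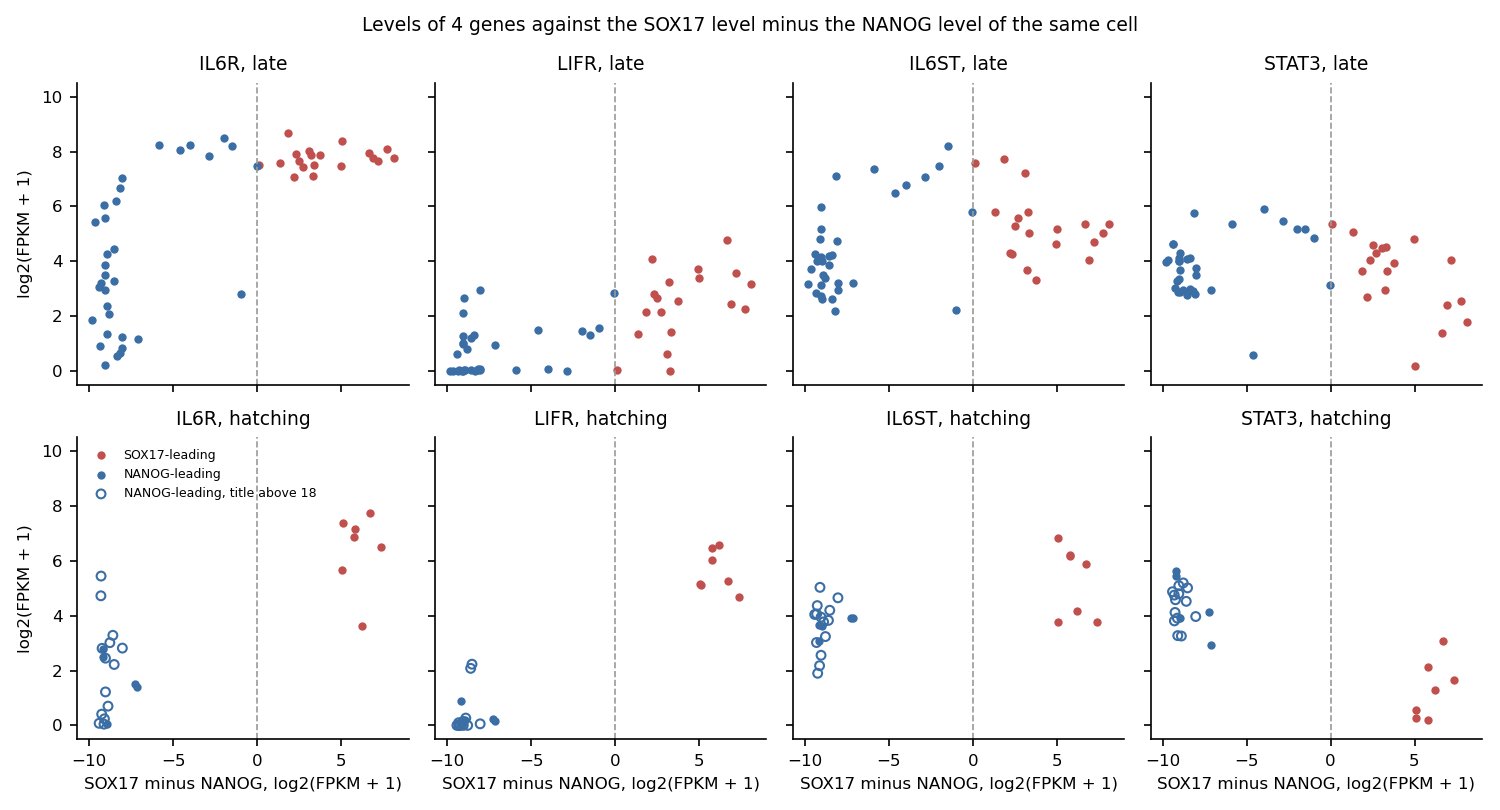
Levels of IL6R, LIFR, IL6ST and STAT3 as log2(FPKM + 1) on the vertical axis against the SOX17 level minus the NANOG level of the same cell on the horizontal axis, for 52 late (top) and 26 hatching cells (bottom). Red points are SOX17-leading and blue points NANOG-leading cells, and open circles are hatching cells with title numbers above 18. Some late cells near the dashed line of equal levels have IL6R and IL6ST as high as, or higher than, cells far to the right. Others do not, such as cell L13, with IL6R at 2.80 and IL6ST at 2.24. LIFR is highest to the right. Late cells with title numbers above 46, which hold every late IL6ST value of at least 100 FPKM, are not marked.

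Among NANOG-leading cells, IL6R and STAT3 were lower in both later stages than in the middle blastocyst. Late NANOG-leading minus middle cells gave 0 of 7 genes higher and 2 lower, STAT3 at -1.996 and IL6R at -1.73, where 4.68% and 7.09% of all genes were. The IL6R value was -0.12 from mean FPKM and -0.95 at a pseudocount of 10, and 9 of the 33 cells held over 100 FPKM. Without the cells numbered above 46, IL6R was at -3.07, and IL6ST at -1.57 and JAK2 at -1.30 were also lower, which makes 4 of 7. Over all genes 680 were then higher and 940 lower, against 458 and 693 with these cells. Hatching NANOG-leading minus middle cells gave 0 higher and 4 lower, IL6R at -3.93, IL6ST at -1.51, STAT3 at -1.46 and JAK2 at -1.36, where 13.3% and 15.8% of all genes were. JAK2 was at -0.41 for a pseudocount of 10 and at -0.49 in high title numbers. Hatching minus late NANOG-leading cells gave 0 higher and 1 lower, IL6R at -2.20, where 9.41% and 8.02% of all genes were. It was at -0.85 without the late cells numbered above 46. STAT3 differed by 0.53.

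Among SOX17-leading cells, LIFR was higher and STAT3 lower at hatching than at the late stage. Hatching minus late SOX17-leading cells differed by 3.17 for LIFR, with 6 of the 7 hatching cells above all 19 late cells. The LIFR value was 1.90 at a pseudocount of 10. STAT3 differed by -2.19 (means of 1.31 and 3.50), which was -0.91 at a pseudocount of 10, and IL6R by -1.34 (6.42 and 7.75), which was -0.74 with median-of-ratios scaling. IL6ST had a mean of 5.26 in both. Of the 7 genes, 1 was higher and 2 were lower, where 11.3% and 29.8% of all genes were. The all-gene median was -0.40, and -0.10 with median-of-ratios scaling, which turned the all-gene split of 1110 higher and 2918 lower into 1712 and 2031. With that scaling LIFR was at 3.71 and STAT3 at -1.82. At the late stage IL6R thus exceeded LIFR by over 5 log2 units in these cells, and at the hatching stage the means of IL6R, 6.42 (SD 1.40), and LIFR, 5.61 (SD 0.74), lay within 1 SD of IL6R.

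Over single cells of a stage the same relations appear as Spearman correlations, given as descriptions. Whether the cells of a stage share a library preparation is not known here. The cells differ in depth, and the stages with separate ranges of cells pool them. In 52 late cells SOX17 correlated with IL6R at 0.73, with IL6ST at 0.55, with LIFR at 0.53, with SOCS3 at 0.32 and with STAT3 at -0.04. NANOG correlated with LIFR at -0.69 and with IL6R at -0.57. In 26 hatching cells SOX17 correlated with LIFR at 0.89, with IL6R at 0.55 and with STAT3 at -0.67, and NANOG with STAT3 at 0.62. Within the 14 hatching cells of high title numbers, all NANOG-leading, STAT3 and NANOG were at -0.27. Before the ranges separated, the sign was the other way for IL6R, whose correlation with NANOG was 0.32 in 44 early and 0.42 in 39 middle cells, and IL6ST was at 0.24 and 0.44. Inside the 33 late NANOG-leading cells, of which 10 were numbered above 46, the rho with SOX17 was 0.52 for IL6R, 0.50 for IL6ST and 0.29 for LIFR. In the 19 late SOX17-leading cells it was 0.12, -0.03 and 0.14, and in the 19 hatching NANOG-leading cells -0.09, -0.12 and 0.77. The value of 0.77 for LIFR ranks levels near 0, since LIFR and SOX17 each reached FPKM of 1 in 2 of these 19 cells. Pearson's r for LIFR and SOX17 in the same cells was 0.09. Over the 26 hatching cells LIFR and the recovered reads had a rho of -0.61. For IL6R in hatching cells the rho with SOX17 was 0.78 in the 12 cells of low and 0.09 in the 14 cells of high title numbers.

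Receptor parts were also counted in the same cell. IL6R and IL6ST were both at FPKM of at least 1 in 41 of 44 early, 39 of 39 middle, 47 of 52 late and 20 of 26 hatching cells. LIFR and IL6ST were found in the same cell in 3 early, 4 middle, 28 late and 9 hatching cells. The whole line of LIFR, IL6ST, JAK1 and STAT3 was present in 3 early (6.82%), 3 middle (7.69%), 24 late (46.2%, 32.2% to 60.5%) and 6 hatching cells (23.1%, 8.97% to 43.6%). The line of IL6R, IL6ST, JAK1 and STAT3 was present in 37 (84.1%), 35 (89.7%), 42 (80.8%) and 16 cells (61.5%). In late cells the line from LIFR was found in 14 of 19 SOX17-leading and 10 of 33 NANOG-leading cells, and in hatching cells in 4 of 7 and 2 of 19.

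The wider pathway was read from a list of 55 genes, 49 with a row and 38 past the level filter, members included. None of the 7 listed ligands passed, and OSM was listed at 0 in every cell. Of the 6 receptor genes that passed, 3 were higher in late and 5 in hatching SOX17-leading cells, and 0 were lower. Over all genes 7.69% were higher and 7.89% lower in late cells, and 14.2% and 33.7% in hatching cells. Receptor medians were 1.20 and 1.55, beside all-gene medians of -0.01 and -0.45. Outside the members, the higher receptor genes were IL11RA and OSMR. IL11RA, the receptor of IL11, was at 1.59 in late and 1.22 in hatching cells. OSMR, a receptor chain for oncostatin M, was at 0.82 and 1.47. It was found in 2 of 7 hatching SOX17-leading and 0 of 19 NANOG-leading cells. The receptor count depends on the level filter, which OSMR passed narrowly at a mean FPKM of 1.17. The filter left out the listed receptor IL27RA, with a mean FPKM of 0.495. IL27RA was found in 0 of 7 hatching SOX17-leading and 5 of 19 NANOG-leading cells. CNTFR, the receptor of ciliary neurotrophic factor, was at -0.41 in late and 0.03 in hatching cells. ADAM10, a protease that can shed IL6R from the cell surface, was higher by 1.34 and 1.46.

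**Figure D4:**
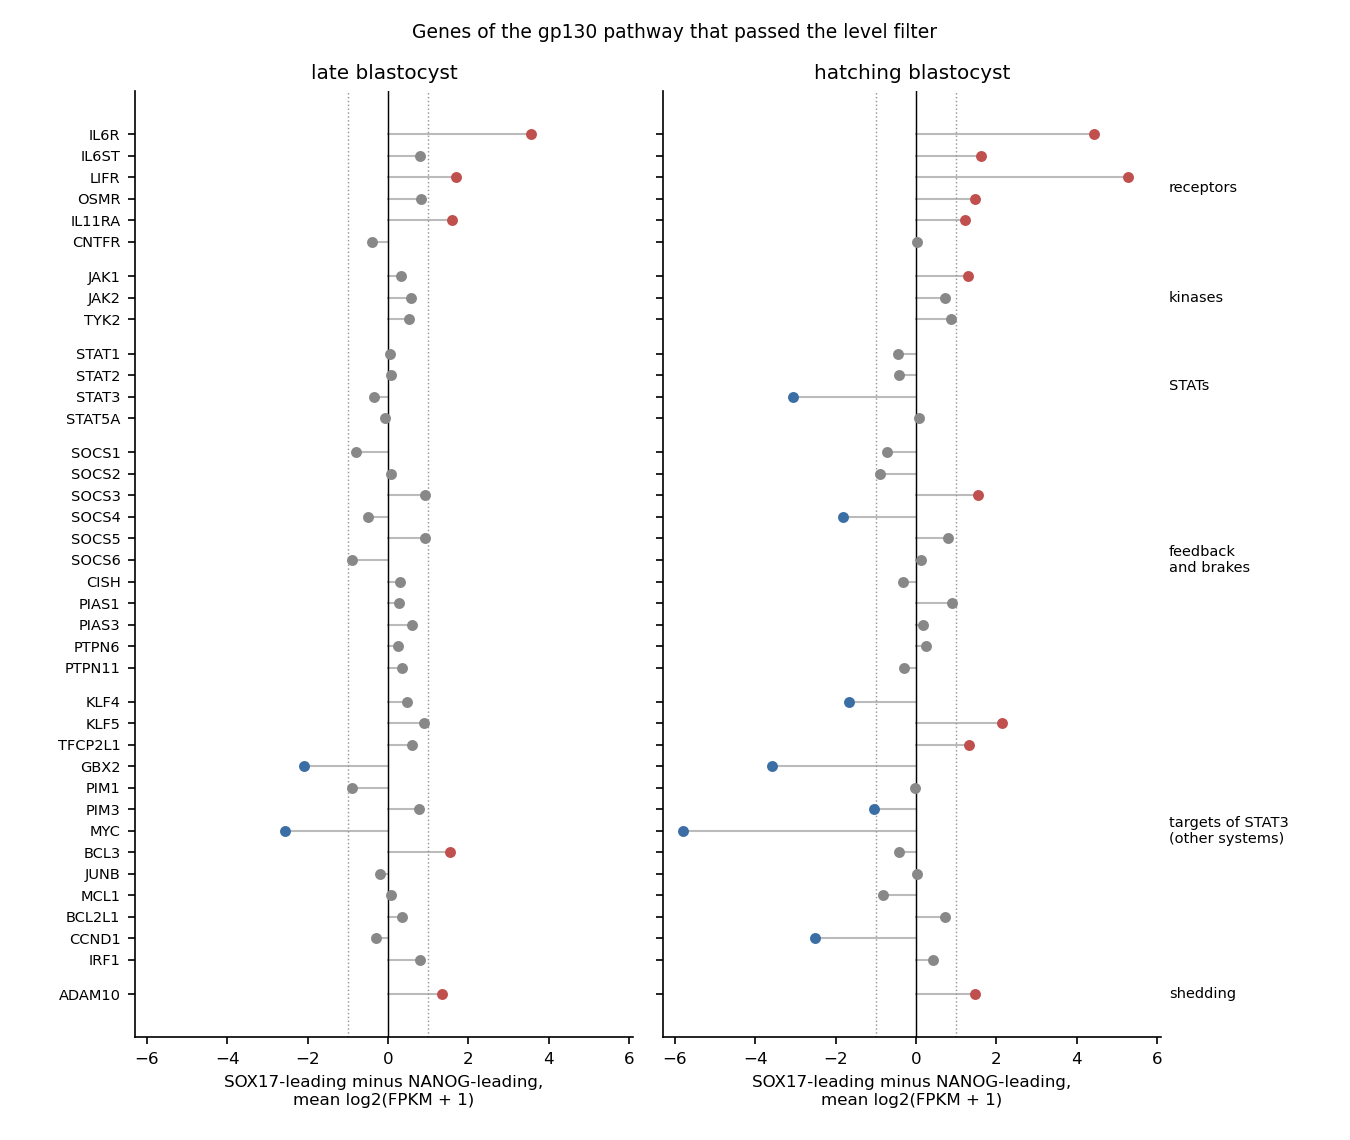
Difference of mean log2(FPKM + 1), SOX17-leading minus NANOG-leading cells, on the horizontal axis for the 38 pathway genes past the level filter, grouped by role down the page, in late cells (19 against 33, left) and hatching cells (7 against 19, right). Dotted lines mark 1 log2 unit, red points lie at or above it and blue points at or below minus 1. The receptor genes other than CNTFR lean to the right in both stages, and STAT3 and MYC lie far to the left in hatching cells.

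Genes further down the pathway lay on both sides. The 31 listed genes outside the 8 gave 3 higher and 2 lower in late SOX17-leading cells, and 5 higher and 6 lower in hatching ones, with medians of 0.27 and 0.03. Over all genes 7.69% were higher and 7.89% lower in late cells, and 14.2% and 33.7% in hatching cells, so the count of lower genes in hatching cells was below the all-gene share. Of 4 STAT genes, STAT3 was the only one past 1 log2 unit, in hatching cells. Of 11 feedback genes 0 were past it in late cells, and SOCS3 (1.53) and SOCS4 (-1.81) in hatching cells. Of 13 genes known as STAT3 targets in other systems, 1 was higher and 2 lower in late cells, and 2 higher and 5 lower in hatching cells, shares near those of all genes in hatching cells. MYC, a growth regulator, was at -2.56 and -5.81, found in 1 of 7 hatching SOX17-leading and 19 of 19 NANOG-leading cells. GBX2, a homeobox factor, was at -2.09 and -3.59. KLF4, a zinc-finger factor of the naive state in the mouse, was at 0.47 in late and -1.67 in hatching cells. TFCP2L1, a STAT3 target in mouse stem cells, was at 0.58 and 1.31, and KLF5 at 0.89 and 2.15.

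By stage, other listed genes were also lower in late than in middle cells. Of the 38 genes 1 was higher and 7 lower in late minus middle cells, with a median of -0.10 beside -0.05 over all genes, where 3.95% were higher and 5.82% lower. The 6 lower ones outside the 8 genes were IRF1 at -1.83, TFCP2L1 at -1.60, KLF4 at -1.24, SOCS2 at -1.20, BCL3 at -1.20 and TYK2, a further JAK kinase, at -1.09. PIM1, a kinase gene listed as a STAT3 target, was found in all 161 cells.

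The genes whose levels ran most like a member's over all 161 cells were ranked by Spearman's rho among genes with a mean FPKM of at least 1 that reached FPKM of 1 in at least 20 cells. For IL6R these were SLC41A2 (0.74), ABHD16A (0.71) and FAM213A (0.68), and for LIFR MTTP (0.72), FN1 (0.72) and IGF1 (0.71). LIFR and SOX17 were at 0.67 in the same cells. For STAT3 they were CLUH (0.65), ALDOA (0.65) and CDH1 (0.63), and for IL6ST FTH1, HNF4A and UVRAG (0.58, 0.58 and 0.57). For JAK2 the first was GPD2 (0.47), for JAK1 C20orf112 (0.40), for LIF TPT1 (0.36) and for SOCS3 DGAT2 (0.32). These values pool stages and ranges of cells and describe this set of libraries.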

How the data were processed

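The authors deposited 1 table of FPKM for 16049 gene symbols and 161 single cells, and every column matched a cell's title. Per the labels' protocols, cDNA of single cells was amplified by PCR and sequenced. TopHat2 2.1.0, FastQC, DESeq2 and HTSeq are listed, per the submitters' processing notes, without the step each served. The genome build is not given in the sources used here.

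FPKM was taken as deposited and used as log2(FPKM + 1). Whole reads were recovered from the steps of the values for 13836 of 13857 genes above 0 in at least 2 cells (relative tolerance 2e-06), which held 85.5% to 95.7% of the FPKM in a cell. The PCR reads carry no molecular identifiers. Cells were grouped by the labelled stage, and within late and hatching cells by whether SOX17 or NANOG was higher. Differences of at least 1 log2 unit were counted among 9781 genes with mean FPKM of at least 1. No test was made. The scripts were tested on simulated data with 16049 genes and the group sizes of the hatching comparison, 7 and 19 cells. Values were drawn gene by gene from the middle cells, so the all-gene shift and the depths of hatching cells were not simulated. Shifts were planted only in genes with a median of at least 1 FPKM in middle cells, which leaves out genes such as LIFR and SOCS3. The right sign came out for 91 of 100 genes shifted by 1 log2 unit and for 100 of 100 shifted by 3, and 44 and 95 of them passed the limit of 1 log2 unit. Read recovery was right, up to a whole factor common to all cells of a gene, for 2617 of 2637 genes tried. The 8 genes, the pathway list and the markers were chosen with earlier results of these data known. Named genes are the 8, NANOG, SOX17, the pathway list and the 3 most alike genes of each member. JAK3, STAT4, STAT5B, PIAS2, PTPN2 and ADAM17 have no row under these symbols and were not analysed here. No gene sequences were used here. Alternatives were other pseudocounts, scalings, summaries, detection levels, title number ranges and ways to split the cells. Python 3.11.15 was used with numpy 2.4.6, pandas 2.3.3, scipy 1.17.1 and matplotlib 3.10.9.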

Additional observations from a re-analysis of the deposited data

Results flagged for a closer look

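Among 21 combinations of a gene and a group of 4 to 10 cells, 3 held a cell far from the others of its group by Dixon's criterion, which chance meets in about 1 of 20 groups. Among the 9 late NANOG-leading cells with SOX17 at FPKM of at least 1, the lowest JAK1 level was 1.16 on the log2 scale, and the next was 3.13. The same cell had the lowest IL6R level of the 9, also 1.16. Among the 5 hatching NANOG-leading cells with title numbers 1 to 18, the highest LIFR level was 0.91, and the next was 0.22. In the same 5 cells the highest JAK2 level was 2.08, and the next was 0.06.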

How the results depend on the processing

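Of 816 alternative values of the differences, 796 stayed within the spread between cells of the reported value and 20 moved by more. The opposite sign was found for 43 values, 0 of them for a difference reported as past 1 log2 unit. With the opposite sign and a size of at least 0.5, and not among the 20, were JAK1 in middle minus early cells (0.76, high title numbers) and in hatching NANOG-leading minus middle cells (1.19, low title numbers), IL6R in late minus middle cells (0.83 for the median cell and 0.65 from mean FPKM), and LIFR (-1.07 for the median cell and -0.95 in high title numbers) and STAT3 (0.92, high title numbers) in hatching minus late cells. With a pseudocount of 0.1, LIFR was at 2.51 in late minus middle cells, 2.99 between the late ranges, 7.71 between the hatching ranges and 1.42 in late NANOG-leading minus middle cells, SOCS3 at 1.97 between the late ranges, STAT3 at -4.04 between the hatching ranges, and LIF at -0.09 in hatching minus late SOX17-leading cells. With a pseudocount of 10, LIFR was at 0.51, 2.50 and 1.90 in the late ranges, the hatching ranges and hatching minus late SOX17-leading cells, IL6R at 2.77 between the hatching ranges and -2.32 in hatching NANOG-leading minus middle cells, and STAT3 at -1.36 between the hatching ranges. From mean FPKM, LIFR was at 3.80 in hatching minus early cells and SOCS3 at 2.75 between the hatching ranges. In low title numbers JAK1 was at 1.59 in hatching minus late and 1.60 in hatching minus late NANOG-leading cells, and LIFR at 3.28 in hatching minus early cells. Splitting hatching cells at a SOX17 FPKM of 1 gave LIFR 4.04, and the median cell gave JAK2 -1.87 in hatching minus late SOX17-leading cells. Among correlations the sign of STAT3 with NANOG turned to -0.27 in hatching cells of high title numbers. The cause was not tested.

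In all, 58 values under 1 log2 unit as reported passed it under an alternative, and 31 past it were under it. Between the late ranges IL6ST, JAK2 and SOCS3 were among those that passed it, with SOCS3 at 1.62 from mean FPKM and 1.15 with NANOG and SOX17 at least 2 log2 units apart. LIFR in hatching minus late cells reached 2.01 in low title numbers, and JAK1 between the hatching ranges was at 0.18 there. Counts of all genes past 1 log2 unit moved most with the pseudocount: with 0.1, as reported and with 10 they were 1799, 652 and 102 in middle minus early, 2184, 955 and 195 in late minus middle, 3363, 1675 and 334 in hatching minus late, 4317, 2688 and 850 in hatching minus early, 2892, 1524 and 387 between the late ranges, 2526, 1151 and 249 in late NANOG-leading minus middle, and 4401, 2855 and 942 in hatching NANOG-leading minus middle cells. Between the hatching ranges a pseudocount of 10 left 2070 of 4687. Title number ranges gave 1345 (low) and 1215 (high) in middle minus early, 1451 and 1818 in late minus middle, 1838 and 1884 in late NANOG-leading minus middle cells, and 3278 (low) in hatching minus late, and the median cell gave 1063 in middle minus early cells. High title numbers give no value for hatching SOX17-leading cells, since there are none. Leaving out late cells numbered above 46, the split of late NANOG-leading cells at SOX17, the counts of genes held by the same cell, the comparisons within NANOG-leading cells and the comparison with hatching cells numbered 1 to 18 were chosen after seeing the data. No paired analysis was possible because the labels give no number that links cells of different stages, and no test was made.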
